A study of Mus musculus with 39 samples.

Results

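The transcripts described here are those of genes that mark tumour macrophages and the monocytes they arise from, in AB1-HA mouse mesothelioma. The genes were chosen by symbol in the deposited gene count table and were Adgre1, Csf1r, Cd68, Cd163, Mertk, C1qa, C1qb, C1qc, Ly6c2 and Plac8. Of these 10 genes, 9 were found among the 39676 genes of the table, and Adgre1, which encodes the macrophage antigen F4/80, was not analysed here. All 9 passed the filter on low counts in every comparison.

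Tissue macrophages depend on signalling through the CSF1 receptor, encoded by Csf1r, which binds the cytokines CSF1 and IL-34. CD68 is a glycoprotein of the lysosome, CD163 is the scavenger receptor that takes up complexes of haemoglobin and haptoglobin, and MERTK is a TAM family receptor tyrosine kinase with which macrophages engulf apoptotic cells. C1q, the recognition molecule of the classical complement pathway, is assembled from the A, B and C chains encoded by C1qa, C1qb and C1qc, and tissue macrophages are a main source of it. Ly6c2 encodes a GPI-anchored surface protein that marks inflammatory monocytes, and Plac8 encodes a small cysteine-rich protein abundant in monocytes. Both are less exclusive to the lineage, since Ly6c proteins are also present on some lymphocytes and endothelial cells, and Plac8 on several kinds of leukocyte.

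RNA was sequenced from 39 subcutaneous tumours of AB1-HA, a mesothelioma cell line carrying influenza haemagglutinin, grown in BALB/c mice of 8 to 10 weeks. The mice received PBS (n = 10), tretinoin, which is all-trans retinoic acid (n = 9), immune checkpoint therapy (ICT) with antibodies against CTLA-4 and PD-L1 (n = 10), or tretinoin with ICT (n = 10). Per the labels, tretinoin was given at 5 mg/kg in 5 daily doses from day 4 and each antibody at 100 µg on day 7. The study's own account of the dose and number of doses varies between its experiments. Tumours were resected on day 9, and in mice with a tumour on each flank the tumour that stayed in place gave the response. Response labels exist for the 10 tumours treated with tretinoin and ICT, of which 6 are Responder and 4 Non-responder. All groups shared one cell line, one strain and the same day of resection.

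A tumour had between 14033046 and 37951183 counts in all (median 18548168). The tumour names start with a digit, and each treatment group holds 2 such digits that occur in no other treatment, so what the digits stand for cannot be told apart from treatment. Expression is given as normalised counts (counts divided by a size factor per tumour) and changes as log2 fold changes (log2FC). Several tumours stood apart in these genes. PBS replicate 4 and ICT replicate 3 were each the highest of their group for 8 of the 9 genes, all but Cd163, and Tretinoin replicate 3 for 6, namely Csf1r, Cd68, Mertk and the C1q chains. PBS replicate 4, ICT replicate 3 and Tretinoin replicate 3 were also each the highest of their group for Ptprc. As a check of the labelled tissue, 5 of 8 mesothelial markers were in the table, and their summed level was low, with medians of 20.4 normalised counts in PBS and 73.9 in Tretinoin+ICT tumours. Msln, Krt8 and Krt18 were not analysed here. In bulk tumour RNA, more cells of a type and more RNA per cell cannot be told apart.

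The sequences bear on how well each transcript could be counted and on what lies upstream of the 2 C1q genes with an entry in the promoter table. Ly6c2 (chromosome 15, 75108158 to 75111970, GRCm38) has a close neighbour, Ly6c1 (75044018 to 75048830), whose coding sequence has the same length of 396 bases. Bases 1 to 260 of both coding sequences follow, from the GENCODE M21 transcripts, with the differing bases in capitals.

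Ly6c2: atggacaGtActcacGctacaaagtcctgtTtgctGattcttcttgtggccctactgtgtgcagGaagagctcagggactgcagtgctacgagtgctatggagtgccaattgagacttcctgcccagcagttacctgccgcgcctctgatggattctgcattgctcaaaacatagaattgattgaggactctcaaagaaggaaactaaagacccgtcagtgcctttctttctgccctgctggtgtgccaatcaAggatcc
Ly6c1: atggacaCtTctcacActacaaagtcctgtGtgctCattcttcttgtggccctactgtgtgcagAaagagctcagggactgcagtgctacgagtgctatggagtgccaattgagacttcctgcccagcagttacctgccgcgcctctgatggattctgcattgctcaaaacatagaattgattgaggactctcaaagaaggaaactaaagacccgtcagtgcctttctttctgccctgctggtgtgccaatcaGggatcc

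The 2 coding sequences differed at 9 of 396 positions, 7 of them in the stretch shown, an identity of 97.7%, and shared an identical run of 188 bases. Of the 767 windows of 100 bases (the read length) in Ly6c2 transcripts, 114 (14.9%) occurred also in Ly6c1. None of the windows of the other 8 measured genes occurred in another protein-coding gene. How reads matching more than 1 place were treated is not given in the sources used here, so counts of Ly6c2 carry an uncertain share of Ly6c1 reads. The reference is C57BL/6J, whereas the tumours and hosts were BALB/c.

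C1qb, C1qc and C1qa lie side by side on the minus strand of chromosome 4 in GRCm38, C1qb at 136880129 to 136886187, C1qc at 136889804 to 136893065 and C1qa at 136895917 to 136898803. RefSeq promoter sequences (GRCm38.p6) were matched for C1qb, C1qc, Cd163, Cd68, Ly6c2, Mertk and Plac8. The 250 bases before the RefSeq start sites of C1qb (chr4:136886201-136886450, minus strand) and C1qc (chr4:136892915-136893164, minus strand) are shown because the transcripts of the 2 genes moved together across tumours. Capitals mark the GAGGAA core that PU.1, the product of Spi1 and a transcription factor of the myeloid lineage, can bind, read on either strand.

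C1qb: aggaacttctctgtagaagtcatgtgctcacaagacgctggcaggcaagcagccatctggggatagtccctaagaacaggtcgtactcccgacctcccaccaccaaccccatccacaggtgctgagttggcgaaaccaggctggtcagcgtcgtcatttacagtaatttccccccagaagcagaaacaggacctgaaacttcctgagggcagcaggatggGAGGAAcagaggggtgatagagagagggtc
C1qc: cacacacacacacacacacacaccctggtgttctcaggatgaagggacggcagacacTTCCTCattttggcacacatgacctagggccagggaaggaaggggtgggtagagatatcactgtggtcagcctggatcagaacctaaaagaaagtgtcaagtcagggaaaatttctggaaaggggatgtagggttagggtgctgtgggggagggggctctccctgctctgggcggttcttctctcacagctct

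The core lay 30 bases before the C1qb start and 193 bases before the C1qc start. Distances are counted from the RefSeq start sites. The C1qc site lies inside the GENCODE gene, which reaches to 136893065, so part of the C1qc bases shown is within that gene. GAGGAA was also matched upstream of Cd68, Ly6c2 and Plac8, and occurred in 23.3% of 32851 promoters of the same length, so a match is a description of the letters and not of a bound site. Neither C1q promoter held the interferon response element, a repeat of GAAA after 2 bases (2.98% of promoters), or the interferon gamma activated site TTCNNNGAA (7.02%), both searched on either strand. AGGTCA, a core that nuclear receptors can bind, occurred 174 bases before the C1qc start and in 14% of promoters.

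Per length of transcript, C1q was the most abundant product of these genes. In PBS tumours (n = 10) the median was 498 for C1qa (range 447 to 739), 318 for C1qb (283 to 509) and 202 for C1qc (181 to 333), in normalised CPM per kilobase of exon. Cd68 followed at 138 (120 to 176), then Csf1r at 92.4 (84.5 to 134) and Plac8 at 92.1 (78.2 to 127), which did not differ beyond their spread. Cd163 at 9.75 (7.51 to 15.9) and Ly6c2 at 9.72 (6.23 to 24) also lay within each other's range, and Mertk was lowest at 3.74 (3.27 to 4.56). Exon lengths included all annotated isoforms of a gene, which lowers the value of genes with long rare isoforms. Among these were C1qc (1931 bases, with 1104 windows of 100 bases in its protein-coding transcripts) and Ly6c2 (2740 bases, with 767 windows). The place of C1qc and Ly6c2 in this order is therefore uncertain.

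**Figure D1:**
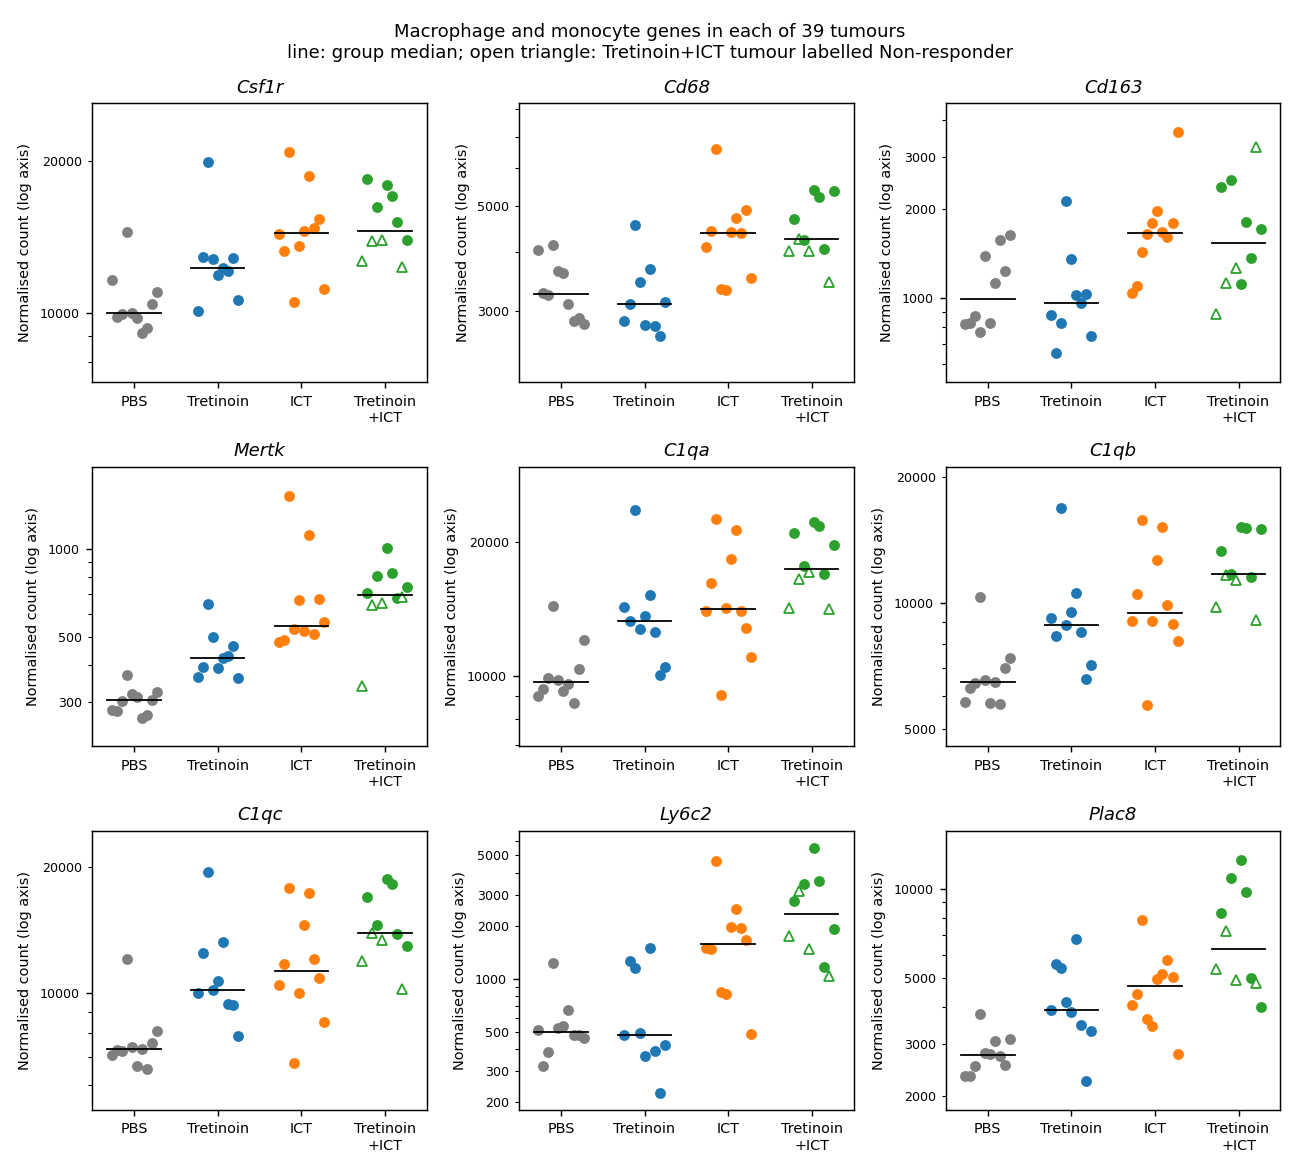
Normalised counts of the 9 genes in each of the 39 tumours, on log axes, by treatment group, with the group median as a line and open triangles for Non-responder tumours within Tretinoin+ICT. Mertk in ICT tumours (480 to 1525) lay above all PBS tumours (265 to 371), whereas Cd163 overlapped in every comparison.

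Each pair of groups was compared over all genes with edgeR's quasi-likelihood test, with Benjamini-Hochberg adjusted p over all genes tested. A gene passed at an adjusted p below 0.05 and was called if its log2FC was also at least 1 in size. With ICT alone, all 9 genes passed as higher than in PBS tumours, as did 14.1% of all genes tested, and Mertk and Ly6c2 were called (2.28% of genes were called higher). With tretinoin alone, Mertk, C1qa, C1qb, C1qc and Plac8 passed as higher than in PBS tumours (11.5% of all genes did) and none of the 9 was called (1.49% of genes were called higher). With the combination, all 9 passed against PBS (25.7% of genes), and Mertk, Ly6c2 and Plac8 were called (5.45%). Against tretinoin alone, the combination was higher for Cd68, Mertk, C1qa, Ly6c2 and Plac8 (12.3% of genes passed as higher), with Ly6c2 called (1.87%). Against ICT alone, none of the 9 passed by edgeR or DESeq2 (1.57% of genes passed as higher by edgeR and 0.366% were called), and 1 gene, Plac8, had an unadjusted p below 0.05. The comparisons share groups, so their counts are not independent of each other. The median log2FC over the 9 genes was 0.45 with tretinoin, 0.63 with ICT and 0.87 with the combination, each against PBS, where the median over all genes tested was 0.007928, -0.01559 and -0.01295.

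**Figure D2:**
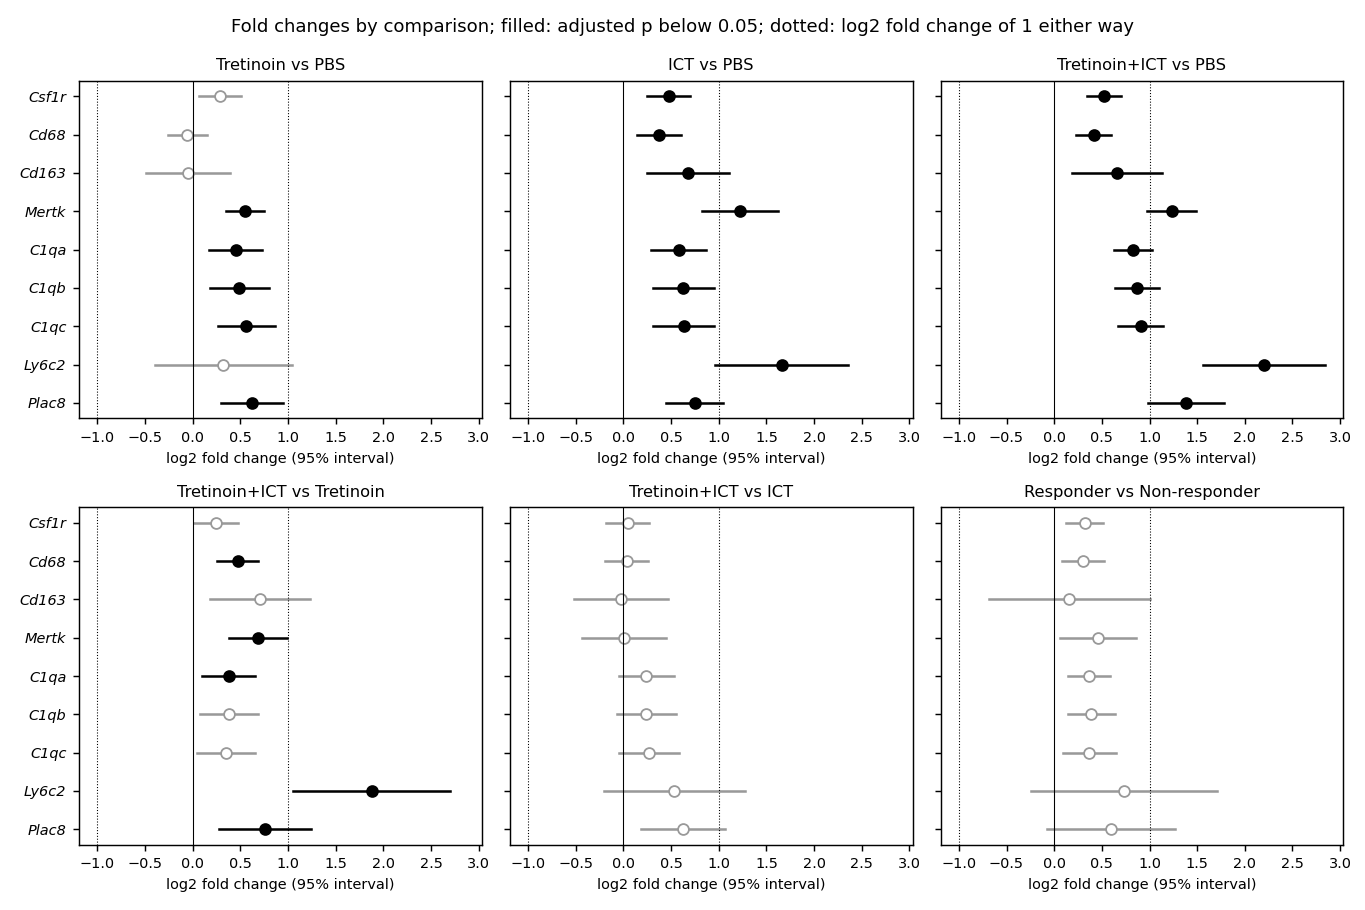
Log2 fold changes of the 9 genes in each comparison, from edgeR's quasi-likelihood fits, with 95% confidence intervals derived from the F statistic of the test. Filled points passed at an adjusted p below 0.05, and dotted lines mark a log2FC of 1 in size. Every interval for ICT against PBS lay above 0, whereas 8 of 9 intervals for Tretinoin+ICT against ICT spanned it.

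Csf1r (chromosome 18, 61100598 to 61132149), the receptor that sustains macrophages, rose with ICT and with the combination. PBS tumours held 9138 to 14470 normalised counts (median 9991) and Tretinoin tumours 10120 to 19882 (median 12299). ICT tumours held 10509 to 20823 (median 14445) and Tretinoin+ICT tumours 12360 to 18401 (median 14572). The groups overlapped, but every Tretinoin, ICT and Tretinoin+ICT tumour lay above the PBS median. The log2FC against PBS was 0.47 with ICT (SE 0.108, adjusted p = 0.00593) and 0.53 with the combination (SE 0.086, adjusted p = 4.49e-05). With tretinoin alone it was 0.28 (95% interval 0.062 to 0.504, adjusted p = 0.0632), and without PBS replicate 4, the highest PBS tumour, it was 0.34 (adjusted p = 0.0159). Without Tretinoin replicate 3, the highest Tretinoin tumour, it was 0.18 (adjusted p = 0.119).

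The 2 ligands of this receptor had smaller changes. Csf1, expressed by many stromal and tumour cells, had medians of 8498 normalised counts in PBS, 8074 in Tretinoin, 8291 in ICT and 8056 in Tretinoin+ICT tumours. It fell by 0.21 on the log2 scale with tretinoin (SE 0.074, edgeR adjusted p = 0.0463). Il34 medians lay between 522 and 607, and it rose with the combination by 0.14 against PBS (adjusted p = 0.0499) and by 0.20 against tretinoin alone (adjusted p = 0.0493).

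Cd68, the lysosomal glycoprotein used as a general macrophage marker, rose with ICT, and its change with tretinoin did not pass. It ranged from 2816 to 4135 normalised counts (median 3252) in PBS tumours and from 2649 to 4545 (median 3105) in Tretinoin tumours. In ICT tumours it ranged from 3314 to 6584 (median 4388), and in Tretinoin+ICT tumours from 3447 to 5394 (median 4245). Tretinoin and PBS tumours covered nearly the same range, whereas every ICT and Tretinoin+ICT tumour exceeded the PBS median. The log2FC was 0.37 for ICT against PBS (SE 0.110, adjusted p = 0.0207), 0.41 for the combination against PBS (SE 0.089, adjusted p = 0.000601) and 0.47 for the combination against tretinoin (SE 0.103, adjusted p = 0.00509). For tretinoin against PBS it was -0.06 (95% interval -0.263 to 0.148). Without ICT replicate 3 the value for ICT against PBS was 0.295 (adjusted p = 0.0319). The ratio of Cd68 to Csf1r was lowest in Tretinoin tumours, with a mean log2 ratio of -1.988 ± 0.188 (SD, n = 9) against -1.654 ± 0.175 in PBS tumours (n = 10), given as a description.

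Cd163 (chromosome 6, 124304656 to 124330527), the haemoglobin scavenger receptor, varied more among tumours of a group than did Csf1r, Cd68 or the C1q genes. PBS tumours ranged from 769 to 1628 normalised counts (median 997) and Tretinoin tumours from 652 to 2123 (median 962). ICT tumours ranged from 1038 to 3635 (median 1662) and Tretinoin+ICT tumours from 886 to 3243 (median 1540). All groups overlapped, and 6 of 10 ICT tumours lay above every PBS tumour. The log2FC was 0.68 for ICT against PBS (SE 0.206, adjusted p = 0.0254) and 0.66 for the combination against PBS (SE 0.227, adjusted p = 0.0211). For the combination against tretinoin it was 0.71 (95% interval 0.184 to 1.234, adjusted p = 0.0505), and for tretinoin against PBS -0.05 (95% interval -0.495 to 0.392). Between single name digits the value for ICT against PBS ranged from 0.12 to 1.20.

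Of the 7 measured genes of haemoglobin and haem handling, 3 rose with ICT (14.1% of all genes). Hpx, which encodes the haem-binding hemopexin, had a median of 36.5 normalised counts in PBS and 89.3 in ICT tumours (log2FC 1.27, SE 0.377, adjusted p = 0.0227). Hmox1, the haem oxygenase that degrades haem, rose by 0.67 (adjusted p = 0.0385) and Blvrb, a biliverdin reductase, by 0.58 (adjusted p = 0.0297). With the combination against PBS the changes were 1.55 for Hpx, 0.64 for Hmox1, 0.98 for Blvrb, 0.64 for Hp, the haptoglobin gene, and 0.29 for Ftl1, a ferritin subunit, and all passed (25.7% of all genes passed as higher). Slc40a1, the iron exporter ferroportin, went the other way, with a log2FC of -0.26 with tretinoin (adjusted p = 0.00789) and -0.53 with the combination (adjusted p = 0.00437), both against PBS. Against tretinoin alone, the combination had higher Hpx (1.41), Hmox1 (0.60) and Blvrb (0.83), which passed, as did 12.3% of all genes. Lrp1, the receptor for hemopexin bound to haem, fell by 0.36 (adjusted p = 0.0258), where 9.01% of all genes passed as lower.

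Mertk (chromosome 2, 128698956 to 128802894), the receptor for engulfing apoptotic cells, was the only one of the 9 genes whose ICT and PBS tumours did not overlap. The share of all genes that separated groups in this way was not counted, here or for Pros1 and Plac8 below. PBS tumours ranged from 265 to 371 normalised counts (median 304) and Tretinoin tumours from 361 to 648 (median 423). ICT tumours ranged from 480 to 1525 (median 546) and Tretinoin+ICT tumours from 340 to 1007 (median 695). No ICT tumour overlapped with a PBS tumour, 7 of 9 Tretinoin tumours lay above every PBS tumour, and 9 of 10 Tretinoin+ICT tumours did, the exception being a Non-responder at 340. The log2FC against PBS was 0.55 with tretinoin (SE 0.095, adjusted p = 0.000394), 1.22 with ICT (SE 0.191, adjusted p = 0.000635) and 1.23 with the combination (SE 0.124, adjusted p = 3.23e-07). It was 0.68 for the combination against tretinoin (SE 0.145, adjusted p = 0.00446) and 0.005 for the combination against ICT (95% interval -0.434 to 0.444). Without ICT replicate 3 the value for ICT against PBS was 1.03, and that for the combination against ICT was 0.20 (edgeR adjusted p = 0.438). Without Tretinoin replicate 3 the value for tretinoin against PBS was 0.46.

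Mertk was also higher relative to Csf1r in the treated groups. The mean log2 ratio of Mertk to Csf1r was -5.118 ± 0.126 in PBS (n = 10), -4.855 ± 0.101 in Tretinoin (n = 9), -4.462 ± 0.371 in ICT and -4.451 ± 0.316 in Tretinoin+ICT tumours (SD, n = 10 each), a description with no test. Of the other TAM receptors, Axl had group medians between 10276 and 10865 normalised counts and passed in no comparison, and Tyro3 fell by 0.16 with the combination against PBS (adjusted p = 0.0475). Of the ligands that bridge these receptors to dying cells, Gas6 passed in no comparison. Pros1, which encodes protein S, ranged from 1657 to 2011 in PBS and from 2084 to 2810 in Tretinoin+ICT tumours, so the groups did not overlap. It rose with ICT (log2FC 0.22, SE 0.043, adjusted p = 0.00254) and with the combination against both PBS (0.39) and tretinoin (0.30).

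The 3 C1q chains rose together with tretinoin, with ICT and with the combination. C1qa ranged from 8704 to 14402 normalised counts in PBS tumours (median 9708), 10026 to 23572 in Tretinoin (13298), 9049 to 22551 in ICT (14132) and 14161 to 22244 in Tretinoin+ICT (17382). C1qb ranged from 5758 to 10370 in PBS tumours (median 6473), 6597 to 16880 in Tretinoin (8866), 5711 to 15762 in ICT (9503) and 9122 to 15231 in Tretinoin+ICT (11732). C1qc ranged from 6539 to 12028 in PBS tumours (median 7307), 7871 to 19517 in Tretinoin (10159), 6766 to 17848 in ICT (11278) and 10173 to 18702 in Tretinoin+ICT (13870). For each chain every Tretinoin tumour and every Tretinoin+ICT tumour exceeded the PBS median, 8 of 10 Tretinoin+ICT tumours lay above all PBS tumours, and 9 of 10 ICT tumours exceeded the PBS median.

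With tretinoin the log2FC was 0.45 for C1qa (SE 0.132, adjusted p = 0.0213), 0.49 for C1qb (SE 0.148, adjusted p = 0.0257) and 0.56 for C1qc (SE 0.145, adjusted p = 0.0106). Without Tretinoin replicate 3, the highest tumour of that group for each chain, the values were 0.32, 0.34 and 0.42. Without PBS replicate 4 they were 0.52, 0.57 and 0.65. Between single name digits they ranged from 0.20 to 0.64 for C1qa, 0.21 to 0.70 for C1qb and 0.27 to 0.80 for C1qc, and each chain passed in 1 of the 4 pairs of digits. With ICT the changes were 0.58, 0.62 and 0.63, with adjusted p of 0.00821, 0.00915 and 0.00858 by edgeR. The combination had the largest changes against PBS among the pairs tested, at 0.83 for C1qa, 0.87 for C1qb and 0.91 for C1qc (SE 0.098, 0.111 and 0.114), with adjusted p of 1.76e-06, 3.86e-06 and 3.48e-06. Against ICT alone the combination was higher by 0.24, 0.24 and 0.27, with a 95% interval of -0.049 to 0.526 for C1qa, and none passed. Against tretinoin alone C1qa narrowly passed (0.38, adjusted p = 0.0494), while C1qb had 0.38 (adjusted p = 0.0645) and C1qc 0.35 (adjusted p = 0.0923). Which of them passed rested on single tumours, since C1qa passed in 3 of the 19 fits with a tumour left out, and without Tretinoin replicate 3 the values were 0.51, 0.53 and 0.48 and all 3 chains passed.

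The chains kept nearly the same proportions throughout. C1qa took 38.7% to 43.7% of the C1q reads of a tumour over all 39 tumours (median 40.7%), C1qb 24.5% to 31.6% (median 27.4%) and C1qc 27.1% to 36.5% (median 31.8%). Divided by exon length the medians were 48%, 31.2% and 20.4%, which reversed the order of C1qb and C1qc. The C1qc length, 1931 bases, covered the exons of all isoforms, whereas its protein-coding transcripts held 1104 windows of 100 bases. The C1qc share per length is therefore likely too low, and which of C1qb and C1qc is higher is not settled. The group medians of the C1qa share lay between 40.1% and 41.4%, so the chains changed by nearly the same factor in each group.

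Genes of the proteins that act with C1q moved in the same direction. Of 6 genes of the C1 complex and the early classical pathway, 5 rose with tretinoin (11.5% of all genes), 6 with ICT (14.1%) and 6 with the combination (25.7%), each against PBS, with a median log2FC of 0.70, 0.99 and 1.52. C1s1, a protease of the C1 complex, had a median of 5831 normalised counts in PBS, 8137 in Tretinoin, 11257 in ICT and 16679 in Tretinoin+ICT tumours. Serping1, the C1 inhibitor, had medians of 1992, 2725, 3418 and 6598 in the same order. C3, the central complement component, changed most of the 6, from a median of 7156 in PBS to 19561 in ICT and 34384 in Tretinoin+ICT tumours, with a log2FC of 1.90 (SE 0.404, adjusted p = 0.00462) and 2.505 (SE 0.351, adjusted p = 1.57e-05). C1ra, the other C1 protease, C2 and C4b rose by 0.73, 0.49 and 0.61 with tretinoin and by 1.45, 1.16 and 1.15 with the combination against PBS. Against tretinoin alone, C1ra (0.72), Serping1 (0.98), C2 (0.66) and C3 (1.39) were higher with the combination and passed (12.3% of all genes). Against ICT alone none of the 6 passed, where 1.57% of all genes passed as higher and 0.422% as lower. C3, C1s1 and Serping1 are made by many cell types besides macrophages, among them fibroblasts.

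**Figure D3:**
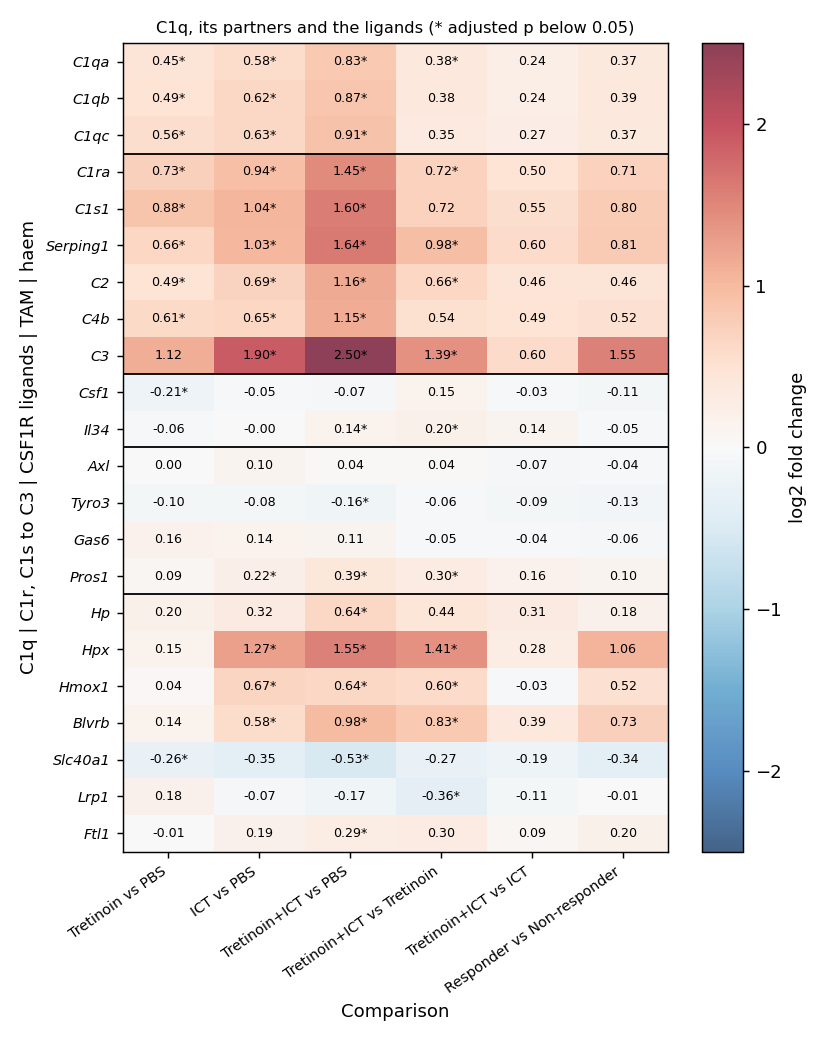
Heat map of log2 fold changes of the C1q chains and of genes for early complement proteins, CSF1 receptor ligands, TAM receptors and ligands and haem-handling proteins (lines) in 6 comparisons (columns), with a star at an adjusted p below 0.05. The 6 complement genes had values above 0 in every column, with 1.12 for C3 under tretinoin not passing, whereas Axl and Gas6 had no star.

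Ly6c2, the monocyte surface protein, had the largest fold change of the 9 genes with ICT and with the combination. PBS tumours ranged from 320 to 1233 normalised counts (median 499) and Tretinoin tumours from 227 to 1505 (median 479). ICT tumours ranged from 486 to 4641 (median 1582) and Tretinoin+ICT tumours from 1040 to 5485 (median 2345). Tretinoin tumours spanned the PBS range, whereas 7 of 10 ICT and 8 of 10 Tretinoin+ICT tumours lay above every PBS tumour. The log2FC was 1.66 for ICT against PBS (SE 0.335, adjusted p = 0.00363) and 1.88 for the combination against tretinoin (SE 0.394, adjusted p = 0.00462). The combination was 4.6-fold higher than PBS (SE of the log2FC 0.306, adjusted p = 1.42e-05). For tretinoin against PBS the log2FC was 0.32 (95% interval -0.400 to 1.044, adjusted p = 0.538), and for the combination against ICT 0.53 (95% interval -0.202 to 1.271, adjusted p = 0.41). Without ICT replicate 3 the value for ICT against PBS was 1.38, and without PBS replicate 4 it was 1.86. Between single name digits, Ly6c2 differed by 1.52 to 1.81 for ICT against PBS and by 1.74 to 2.05 for the combination against tretinoin, where the adjusted p lay between 0.0655 and 0.217 with about 5 tumours a side. Ly6c1, which shares sequence with Ly6c2, moved alike, with medians of 861, 856, 2261 and 3237 in PBS, Tretinoin, ICT and Tretinoin+ICT tumours, so how much of either change belongs to the other gene cannot be told apart here.

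Plac8 (chromosome 5, 100553725 to 100572245), the other gene abundant in monocytes, rose with tretinoin as well as with ICT. It ranged from 2331 to 3778 normalised counts in PBS tumours (median 2746) and from 2245 to 6778 in Tretinoin tumours (median 3907). In ICT tumours it ranged from 2771 to 7828 (median 4700), and in Tretinoin+ICT tumours from 3987 to 12515 (median 6282). No Tretinoin+ICT tumour overlapped with a PBS tumour, and 4 of 10 lay above every ICT tumour. The log2FC against PBS was 0.62 with tretinoin (SE 0.156, adjusted p = 0.00947), 0.75 with ICT (SE 0.144, adjusted p = 0.00261) and 1.38 with the combination (SE 0.191, adjusted p = 1.16e-05). Against tretinoin alone the combination was higher by 0.76 (SE 0.231, adjusted p = 0.027), a change that passed in 13 of the 19 fits with a tumour left out. Against ICT alone the value was 0.62 (95% interval 0.181 to 1.069, adjusted p = 0.145), and without ICT replicate 3 it was 0.73 (adjusted p = 0.0433).

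Relative to Csf1r, the monocyte transcripts had their highest mean with the combination. These ratios are a description with no test, and the ICT and Tretinoin+ICT tumours overlapped in them. The mean log2 ratio of Ly6c2 to Csf1r was -4.314 in PBS, -4.447 in Tretinoin, -3.274 in ICT and -2.729 in Tretinoin+ICT tumours (SD 0.416, 0.858, 0.660 and 0.649). That of Plac8 to Csf1r was -1.919, -1.620, -1.672 and -1.153 in the same order (SD 0.203, 0.463, 0.230 and 0.435). The ratio of Csf1r to Ptprc, the gene of the pan-leukocyte antigen CD45, was 1.229 in PBS, 1.369 in Tretinoin, 1.215 in ICT and 1.041 in Tretinoin+ICT tumours, each a mean log2 ratio (SD 0.230, 0.233, 0.363 and 0.237).

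Of 11 other monocyte genes tested, 2 rose and 1 fell with tretinoin, where 11.5% of all genes passed as higher and 8.95% as lower. With ICT 6 rose (14.1% of all genes), and with the combination 7 rose and 3 fell (25.7% and 24.5%), each against PBS. Chil3, which encodes a chitinase-like protein of monocytes and macrophages, had medians of 23.7, 76.9, 140 and 688 normalised counts in PBS, Tretinoin, ICT and Tretinoin+ICT tumours, with a log2FC of 2.45, 2.63 and 4.91 against PBS. It was the only gene of the list that passed for the combination against ICT (2.27, adjusted p = 0.0326), where 1.57% of all genes passed as higher. Chil3 varied widely, from 11.2 to 745 among Tretinoin tumours. Treml4, a receptor of nonclassical monocytes, rose by 1.07 with tretinoin, whereas S100a4, a calcium-binding protein, fell by 0.62. Ms4a4c, a membrane protein gene, rose by 0.98 with ICT and by 1.06 with the combination against PBS.

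Of 23 other macrophage genes tested, 7 rose and 1 fell with tretinoin (11.5% and 8.95% of all genes), 13 rose with ICT (14.1%), and 16 rose and 1 fell with the combination (25.7% and 24.5%), each against PBS. With tretinoin the largest changes were in Timd4, a receptor for phosphatidylserine (0.82), Cx3cr1, the fractalkine receptor (0.74), Apoe, the lipid carrier apolipoprotein E (0.64), and Cd84, a SLAM family receptor (0.63). With ICT they were in Itgax, the integrin CD11c (1.18), Fcgr1, the high-affinity IgG receptor (0.90), Aif1, the calcium-binding protein IBA1 (0.89), and Fcer1g, the common Fc receptor gamma chain (0.82). Cx3cr1 stood out, with medians of 1859 normalised counts in PBS, 3027 in Tretinoin, 1333 in ICT and 1462 in Tretinoin+ICT tumours, and it fell by 0.90 between tretinoin alone and the combination, where 9.01% of all genes passed as lower. None of the 23 passed for the combination against ICT, where 1.57% of all genes passed as higher and 0.422% as lower. Axl is on both this list and that of the TAM receptors.

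Of 12 transcription factors of the myeloid lineage, 5 rose and 1 fell with tretinoin (11.5% and 8.95% of all genes), 8 rose with ICT (14.1%), and 10 rose and 1 fell with the combination (25.7% and 24.5%), each against PBS. Among the factors reported here, Spic, the factor of red pulp macrophages, had medians of 30.6 normalised counts in PBS, 20.3 in Tretinoin, 29.1 in ICT and 14.6 in Tretinoin+ICT tumours, and fell by 1.11 between ICT and the combination (adjusted p = 0.00308), where 0.422% of all genes passed as lower. Batf3 and Irf8, which act in dendritic cell development, rose by 1.34 and 0.90 with tretinoin, by 1.95 and 0.96 with ICT and by 2.97 and 1.84 with the combination, each against PBS. Cebpb, a factor of inflammatory myeloid cells, rose by 0.73, 1.59 and 2.23 in the same order.

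Markers of other cells moved beside these genes. The summed level of 4 leukocyte genes, led by Laptm5 and Ptprc, ranged from 12616 to 22231 normalised counts in PBS tumours (median 14020), 13170 to 27331 in Tretinoin (16444), 13356 to 39562 in ICT (20545) and 17561 to 37365 in Tretinoin+ICT (25767). All 6 neutrophil genes tested rose with ICT (14.1% of all genes), and the summed level, led by Csf3r and S100a9, went from a range of 948 to 2129 in PBS to 1415 to 5435 in ICT and 2077 to 5234 in Tretinoin+ICT tumours. Ly6g, Camp and Ngp, of the same list, were too low to be tested. Their means were 0.713, 0.822 and 0.974 in PBS and 1.57, 0.695 and 0.325 in ICT tumours. Of 5 NK cell genes tested, 4 rose with ICT (14.1% of all genes) and 5 with the combination against PBS (25.7%), with sums of 636 to 1718 in PBS, 563 to 4242 in ICT and 1215 to 3729 in Tretinoin+ICT tumours. T cell sums had medians of 1033 in PBS, 1309 in Tretinoin, 865 in ICT and 1286 in Tretinoin+ICT tumours. None of 7 T cell and 5 B cell genes tested passed with ICT, where 14.1% of all genes passed as higher. The part of neutrophils and NK cells in the change of Ly6c2 and Plac8, which such cells can express, was not tested.

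Within the combination, the question was whether tumours of Responder and Non-responder mice differed. All 9 genes had a higher mean in Responder tumours and none passed by edgeR (0% of 14604 genes passed and 0% were called higher), while 6 of the 9 and 3302 of all genes (22.6%) had an unadjusted p below 0.05. DESeq2 gave 3 of the 9 an adjusted p below 0.05 and called none. The share of all genes with an adjusted p below 0.05 by DESeq2 was not counted. Csf1r ranged from 13945 to 18401 normalised counts in Responder tumours (median 16666) and was 12706, 13923, 13951 and 12360 in the Non-responder tumours. C1qa ranged from 16982 to 22244 in Responder tumours (median 20337) and was 14202, 16506, 17118 and 14161 in Non-responder tumours. For both, 5 of 6 Responder tumours lay above every Non-responder tumour. The log2FC was 0.32 for Csf1r (95% interval 0.126 to 0.515, adjusted p = 0.0922) and 0.37 for C1qa (95% interval 0.143 to 0.589, adjusted p = 0.0925).

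Mertk ranged from 679 to 1007 in Responder tumours (median 775) and was 340, 645, 656 and 684 in Non-responder tumours, with a log2FC of 0.46 (95% interval 0.057 to 0.859, adjusted p = 0.171). Cd163 ranged from 1114 to 2513 (median 1759) and was 886, 1121, 1269 and 3243, with a log2FC of 0.16 (95% interval -0.683 to 1.001). A single Non-responder tumour, replicate 9, was the highest of all 10 for Cd163. Ly6c2 ranged from 1172 to 5485 in Responder tumours (median 3110) and was 1752, 3128, 1483 and 1040 in Non-responder tumours, and Plac8 ranged from 3987 to 12515 (median 9020) and was 5357, 7207, 4914 and 4810. Responder and Non-responder tumours overlapped in both, with a log2FC of 0.73 (95% interval -0.243 to 1.711) and 0.60 (95% interval -0.074 to 1.269).

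The response labels were unevenly split over the name digits, with 3 of 4 Non-responder tumours under digit 2 and 4 of 6 Responder tumours under digit 4. For Cd163 the direction turned between digits, with means of 2440 in 2 Responder and 1092 in 3 Non-responder tumours under digit 2, and of 1499 in 4 Responder tumours against 3243 in the Non-responder tumour under digit 4. With the digit as a block all 9 log2FC kept their sign and none passed by edgeR, at 0.36 for Csf1r (adjusted p = 0.129), 0.37 for C1qa (adjusted p = 0.142) and 0.145 for Cd163 (adjusted p = 0.869). The test between response labels also depended on single tumours. Without Tretinoin+ICT replicate 8, a Responder tumour, 181 genes were called higher and 24 lower by edgeR. Csf1r, Cd68, C1qa and C1qb passed there but were not called, and the share of all genes that passed was not counted. DESeq2 on all 10 tumours called 107 genes higher and 13 lower.

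The interaction of tretinoin and ICT asks whether the change with tretinoin differed with and without ICT. None of the 9 genes passed by edgeR or DESeq2 (0.307% of 14977 genes passed in either direction), and 1, Mertk, had an unadjusted p below 0.05, as had 9.45% of all genes. The Mertk interaction was -0.55 on the log2 scale (95% interval -1.040 to -0.052, p = 0.0313, adjusted p = 0.46), from a change with tretinoin of 0.55 without ICT and 0.005 with it. The value of 0.005 depended on ICT replicate 3, the highest ICT tumour for Mertk. Without that tumour the change with tretinoin under ICT was 0.20 and the interaction -0.34 (edgeR adjusted p = 0.574). The intervals of the others included 0 and ran as wide as -0.815 to 1.245 for Ly6c2.

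Across the 39 tumours, after subtraction of each treatment group's mean, the C1q chains followed each other most closely. Pearson's r of log2 values was 0.981 between C1qa and C1qb, 0.944 between C1qa and C1qc and 0.935 between C1qb and C1qc. Csf1r followed C1qc (r = 0.892) and C1qa (0.822) and less closely Mertk (0.727), and Ly6c2 followed Plac8 (0.906). Cd163 stood apart, with r between -0.314 and 0.151 to the other 8 genes. These are descriptions over 39 tumours, in each of which all genes come from the same library with its own depth and mix of cells.

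**Figure D4:**
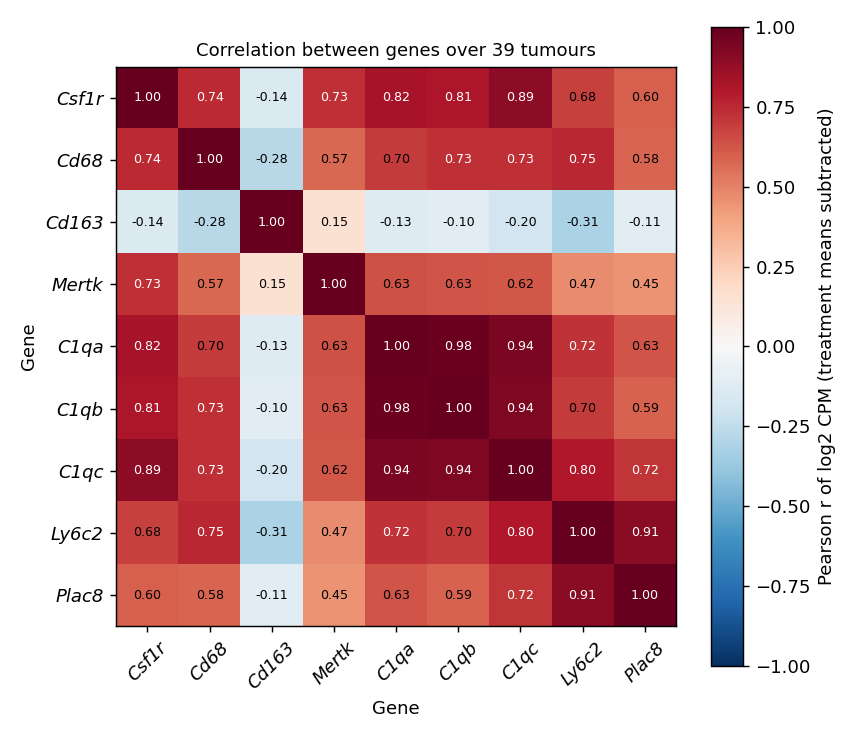
Pearson's r between log2 levels of the 9 genes over 39 tumours after subtraction of group means, as a heat map with red for positive and blue for negative values. The 3 C1q genes form the darkest red block (0.935 to 0.981), and Cd163 is the palest line (-0.314 to 0.151).

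Among 12123 genes, the 3 outside the 9 described here whose levels most resembled each gene were taken by the same measure over the 39 tumours. For Csf1r these were Vsir (0.948), Sirpa (0.930) and Prkcd (0.921), and for Cd68 Ctsa (0.911), Fxyd5 (0.908) and Spi1 (0.897). Vsir encodes the checkpoint protein VISTA, Sirpa the receptor for CD47 on myeloid cells and Ctsa a lysosomal protease. For the C1q chains the genes included Ctss (0.937), Cxcl16 (0.931) and A530040E14Rik (0.929) with C1qa, A530040E14Rik (0.925), H2-DMb1 (0.921) and Bcl2a1b (0.917) with C1qb, and Unc93b1 (0.961), H2-DMa (0.957) and A530040E14Rik (0.951) with C1qc. Ctss, H2-DMa and H2-DMb1 act in loading peptides on MHC class II. For Mertk they were Slc43a2 (0.884), Cerk (0.881) and Ifngr1 (0.868), the last a chain of the interferon gamma receptor. Cd163 had different company, with Stard8 (0.848), Gas6 (0.834), the ligand of the TAM receptors, and Pdgfc (0.805). Ly6c2 was closest to Ly6c1 (0.991), Ly6a (0.975) and the complement gene C2 (0.957), and Plac8 to Glrx (0.923), Ly6c1 (0.921) and Capza2 (0.920). The part of reads that match both genes in the likeness of Ly6c2 and Ly6c1 was not tested.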

How the data were processed

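RNA of 39 frozen tumours was sequenced as single-end reads of 100 bases on a NovaSeq. The authors demultiplexed with bcl2fastq 2.20.0.422, aligned with HISAT2 2.0.4 and counted reads per gene with SummariseOverlaps; the deposited table holds raw gene counts. The strand setting and the treatment of reads with several matches are not given in the sources used here, and the genome is named mm11. Coordinates are those of GRCm38 with GENCODE M21, matched by gene.

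From the deposited counts, edgeR 4.0.16 (R 4.3.3; TMM, filterByExpr, robust quasi-likelihood test) compared pairs of groups over all genes, with an adjusted p below 0.05 and, for calls, a log2 fold change of at least 1; the interaction was fitted over all 39 tumours. Adjusted p are Benjamini-Hochberg values. Normalised counts used DESeq2 1.42.0 size factors, and r used log2 CPM with genes of mean at least 1. The scripts were tested on simulated data. The labels do not say which mouse each tumour came from, so p-values measure only the spread between these tumours. The genes and lists were chosen with earlier results of these data known. All 9 genes were named, as were partner genes at adjusted p below 0.05, the 4 largest changes of each macrophage, monocyte and transcription factor list per comparison, and the 2 highest genes of other marker lists. Alternatives were DESeq2, its size factors in edgeR, no filter, at least 10 counts in every tumour, 1 fit of all tumours, no fold minimum, each tumour left out (for the combination against PBS only PBS replicate 4, and for the interaction 4 tumours), single name digits, and for the response labels the name digit as a block. Some genes that this rule names are not reported here.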

Additional observations from a re-analysis of the deposited data

Results flagged for a closer look

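Of 54 groups of 4 to 10 tumours tested (9 genes in 4 treatments and 2 response labels), 15 had a highest or lowest tumour far from the rest by Dixon's criterion, which chance meets in about 1 in 20 groups if values follow a normal distribution. The counts were used without logs, and whether they follow that distribution was not tested. Response tumours are also among the Tretinoin+ICT tumours, and the genes move together, so the 15 are not independent. The values are normalised counts.

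PBS replicate 4 accounted for 4 of them. It had 14470 for Csf1r (next highest 11641), 10370 for C1qb (7421), 12028 for C1qc (8089) and 1233 for Ly6c2 (671). Tretinoin replicate 3 accounted for 5, with 19882 for Csf1r (12897), 648 for Mertk (499), 23572 for C1qa (15186), 16880 for C1qb (10553) and 19517 for C1qc (13200).

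ICT replicate 3 had 6584 for Cd68 (4885) and 4641 for Ly6c2 (2483). Cd163 was far from the rest in 3 other tumours, at 2123 in Tretinoin replicate 4 (1354), 3635 in ICT replicate 10 (1975) and 3243 in the Non-responder tumour that is Tretinoin+ICT replicate 9 (1269). Mertk was lowest at 340 in the Non-responder tumour that is Tretinoin+ICT replicate 1, where the next was 645.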

How the results depend on the processing

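Over 1332 recomputed log2 fold changes of the 9 genes, 1178 kept their direction and side of the threshold, 88 no longer passed, 26 newly passed and 40 changed sign, none of which had passed. With the fold minimum dropped, genes counted as called became 5 for tretinoin, 9 for ICT and 9 for the combination against PBS, and 5 for the combination against tretinoin. With single name digits, which leave about 5 tumours a group, the count was 0 for ICT against PBS with digit 6 against 1 and against 5, 0 for the combination against tretinoin in all 4 pairs, and 5 for the combination against PBS with digit 4 against 5. Of all genes, 9 of 14195 and 4 of 14253 were called higher in those ICT pairs. In the pairs against tretinoin, 19 of 14410, 211 of 14535, 17 of 14410 and 257 of 14520 were. For the combination against PBS with digit 4 against 5, 839 of 14405 were. The number of the 9 genes that passed in the digit pairs ranged from 0 to 5 for tretinoin, 0 to 8 for ICT and 7 to 8 for the combination, each against PBS. For the combination against tretinoin it ranged from 0 to 1. The shares of all genes that passed in the digit pairs were not counted. With no filter on low counts, 3 genes passed with tretinoin, 8 with ICT and 3 for the combination against tretinoin. DESeq2 let 5 more values pass and lost none.

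The sign changes were in values that had not passed. Between name digits, Cd163 for tretinoin against PBS was 0.31 (3 against 1) and 0.008 (7 against 1), and Cd68 was 0.13 (3 against 5) and 0.003 (7 against 5). For the combination against ICT, Cd68 was -0.039 (2 against 6) and -0.051 (2 against 8), Cd163 0.22 (2 against 6) and 0.40 (4 against 6), and Mertk -0.23 (2 against 6) and -0.10 (2 against 8). With a tumour left out, Cd163 ranged from -0.24 to 0.019 for tretinoin against PBS, and for the combination against ICT Cd163 from -0.17 to 0.15, Mertk from -0.058 to 0.20, Cd68 from -0.005 to 0.11 and Csf1r from -0.002 to 0.11. Cd163 ranged from -0.064 to 0.74 between response labels and from -0.002 to 0.069 in the interaction, and Plac8 from -0.055 to 0.12 in the interaction. The cause was not tested.

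The number of genes that passed with a tumour left out ranged from 5 to 6 for tretinoin, 0 to 1 for the combination against ICT, 3 to 8 for the combination against tretinoin and 0 to 4 for the response labels. The shares of all genes that passed in these fits were not counted. No paired analysis was possible because the labels number no replicates across groups. The 4 Non-responder tumours limit the precision of the response comparison.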

Other observations

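Genes of osteoclast-like cells, which arise from the same lineage under CSF1 and RANK ligand, went the other way from the macrophage genes with tretinoin. The summed level of 7 measured genes ranged from 6997 to 29974 normalised counts in PBS (median 13819), 4334 to 14486 in Tretinoin (5949), 7043 to 28164 in ICT (12392) and 4983 to 12884 in Tretinoin+ICT tumours (7313). Of 6 tested, 3 were lower with tretinoin (8.95% of all genes passed as lower) and 5 with the combination (24.5%), each against PBS, with a median log2FC of -1.17 and -1.19. None of the 6 passed with ICT, where 14.1% of all genes passed as higher. Ctsk, the bone-resorbing protease cathepsin K, had medians of 4720, 1710, 4100 and 1992 in PBS, Tretinoin, ICT and Tretinoin+ICT tumours.

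Eosinophil genes, of which 4 of 5 tested rose with the combination against PBS (25.7% of all genes), had a summed median of 219 normalised counts in PBS and 673 in Tretinoin+ICT tumours.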
